A study of Mus musculus with 30 samples.

Results

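Skin makes much of its own lipid, and the 34 genes described here carry out or control that synthesis. Of them, 15 belong to fatty acid synthesis (Fasn, Acly, Acaca, Acacb, Elovl5, Elovl6, Me1, Acss2, Slc25a1, Slc25a10, Thrsp, Tkt, Fads1, Fads2 and Srebf1) and 19 to sterol synthesis and its control (Hmgcs1, Mvk, Pmvk, Mvd, Idi1, Fdps, Fdft1, Sqle, Lss, Cyp51, Dhcr7, Sc4mol, Nsdhl, Hsd17b7, Acat2, Insig1, Srebf2, Scap and Stard4). They were taken by gene symbol from a list and not by a cut on their values, although earlier results of these data were known. They make up 34 of the 22121 gene symbols on the array. They are measured by 80 of its 45037 probe sets, 43 for sterol genes and 37 for fatty acid genes. A probe set is a group of short oligonucleotides that reads 1 transcript or several similar ones. After the dimmest 20% of probe sets had been left out, 76 of the 80 were tested (42 sterol, 34 fatty acid). The 4 that were too dim belonged to Fdps, Acly (2) and Acss2, and each of these genes kept at least 1 other, so that all 34 genes were tested. Where a gene is quoted, its value is that of its probe set with the highest mean over all arrays, in log2 intensity.

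Fatty acid synthesis turns citrate, exported from mitochondria, into cytosolic acetyl-CoA, then malonyl-CoA and palmitate, which elongases and desaturases lengthen and unsaturate. Sterol synthesis condenses the same acetyl-CoA into mevalonate, squalene, lanosterol and cholesterol. Both are driven by the sterol regulatory element-binding proteins (SREBPs), transcription factors encoded by Srebf1 and Srebf2 that SCAP escorts out of the endoplasmic reticulum when sterol is short and that INSIG proteins hold back when it is plentiful. In skin these pathways supply sebum in sebaceous glands, stored fat in dermal adipocytes, and the cholesterol and fatty acids of the epidermal barrier.

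The mice were females of a mixed 129–C57BL/6 strain, 8-12 weeks old, either wild type (WT) or deficient in D6, an atypical receptor that takes up and degrades inflammatory CC chemokines (gene Ccbp2). All were shaved on the back. TPA, a phorbol ester that irritates skin, was painted on 3 times at 50 μM in acetone, 24 h apart, and whole back skin was taken 1, 2, 4 or 6 days later. Controls of each genotype stand as day 0. They received acetone alone according to the methods and the sample descriptions, although their titles read untreated. There were thus 10 groups, every one with 3 mice, and each mouse had an Affymetrix GeneChip Mouse430_2 array of its own (30 in all).

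To set the measurements beside the DNA that carries them, the window from 250 bases before to 50 bases after the transcription start was read from RefSeq (GRCm38.p6) for 29 of the 34 genes. Elovl6, Fasn and Acss2 are shown because they were among the 4 members with the largest genotype difference on day 2 or 4. Hmgcs1 is shown because it was the only member whose window held the sterol regulatory element searched for. Capitals mark matches on either strand to TCACNCCAC (sterol regulatory element), CCAAT (bound by NF-Y), GGGCGG (bound by Sp1) or CACGTG (E-box). The Elovl6 window (chr3:129532136-129532435, plus strand) held none of them, nor did that of Acaca, which was the remaining member of the 4. The Fasn window (chr11:120824498-120824797, minus strand) held 3 CCAAT matches, of which 2 on opposite strands overlapped. The Acss2 window (chr2:155517793-155518092, plus strand) held 1 CCAAT and 5 GGGCGG matches. The Hmgcs1 window (chr13:119690101-119690400, plus strand) held 1 TCACNCCAC, 4 CCAAT and 3 GGGCGG matches.
Elovl6: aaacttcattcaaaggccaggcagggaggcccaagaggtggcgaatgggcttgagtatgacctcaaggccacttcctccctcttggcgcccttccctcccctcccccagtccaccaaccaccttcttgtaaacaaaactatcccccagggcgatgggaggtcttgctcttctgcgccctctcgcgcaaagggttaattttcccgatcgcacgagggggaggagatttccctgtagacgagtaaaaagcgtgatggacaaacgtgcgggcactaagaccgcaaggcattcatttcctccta
Fasn: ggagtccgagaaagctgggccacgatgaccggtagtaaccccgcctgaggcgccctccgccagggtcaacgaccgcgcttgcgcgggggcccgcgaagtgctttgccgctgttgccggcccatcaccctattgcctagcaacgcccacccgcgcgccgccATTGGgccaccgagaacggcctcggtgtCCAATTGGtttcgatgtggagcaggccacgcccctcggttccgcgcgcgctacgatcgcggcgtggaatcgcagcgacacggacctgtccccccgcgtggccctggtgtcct
Acss2: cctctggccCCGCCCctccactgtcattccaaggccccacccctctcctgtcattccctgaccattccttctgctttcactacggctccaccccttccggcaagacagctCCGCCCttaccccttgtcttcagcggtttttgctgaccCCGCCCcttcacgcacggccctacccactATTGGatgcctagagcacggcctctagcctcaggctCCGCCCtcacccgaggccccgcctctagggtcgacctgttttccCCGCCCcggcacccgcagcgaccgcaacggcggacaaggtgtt
Hmgcs1: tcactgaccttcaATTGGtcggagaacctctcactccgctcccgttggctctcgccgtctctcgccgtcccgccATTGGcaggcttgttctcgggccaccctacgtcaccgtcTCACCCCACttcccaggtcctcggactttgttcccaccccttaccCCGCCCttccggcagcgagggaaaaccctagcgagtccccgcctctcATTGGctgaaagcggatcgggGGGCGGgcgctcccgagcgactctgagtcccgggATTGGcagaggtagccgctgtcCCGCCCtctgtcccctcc

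Among the 15 sterol genes with a window, 13 held CCAAT, 14 GGGCGG, 4 CACGTG and 1 TCACNCCAC in at least 1 window. Among the 14 fatty acid genes the numbers were 10, 8, 2 and 0. Of all 32851 windows of this length in the table, 37.4% held CCAAT, 35.7% GGGCGG, 7.15% CACGTG and 1.24% TCACNCCAC. A gene can have more than 1 window, so that counts of genes and shares of windows are not on the same footing: by window, 13 of 19 sterol and 11 of 17 fatty acid windows held CCAAT.

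The arrays had medians of 5.64 to 5.80 and a median SD of 0.19 between the 3 arrays of a group. On 1 of the 3 Ccbp2 probe sets the 15 D6-deficient arrays lay at 3.30 to 3.86 and the 15 WT arrays at 4.15 to 5.76, without overlap; the brightest Ccbp2 probe set did not differ. Hybridization controls told the arrays apart into sets of 17 and 13, and both sets held arrays of either genotype. Every group had arrays in both sets except D6-deficient day 6, whose arrays were all in the set of 17. In control skin Adipoq, a marker of adipocytes, read 13.70 to 13.96 and Far2, a marker of sebaceous glands, 11.06 to 12.14, above the array medians. The 8 muscle markers were all lower than on day 0 at every day in both genotypes, and 6 of 8 neutrophil markers were higher on day 4 in both. In whole tissue, fewer cells of a type and less RNA per cell cannot be told apart. Differences were tested with limma, a linear model fitted to all 30 arrays, and called at a Benjamini-Hochberg adjusted p under 0.05 over all 36029 tested probe sets. The p values measure the spread between these mice, and with 3 arrays on each side the smallest p of an exact permutation test is 0.1.

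The first question was how the pathways moved in WT skin after TPA. Most fatty acid genes fell, and furthest on day 4: Thrsp, a nuclear protein found in lipogenic tissues, fell 40.6-fold, Elovl6, which extends palmitate, fell 9.11-fold, Fasn, the synthase itself, 5.37-fold, and Acss2, which makes acetyl-CoA from acetate, 5.35-fold. Of the 15 genes, 9 were lower than on day 0 on day 1, 12 on day 2, 13 on day 4 and 10 on day 6, and the 1 higher call was that of Fads2 on day 6. The median change of the 15 was -0.73, -1.12, -1.97 and -1.02 on the log2 scale on days 1, 2, 4 and 6, against -0.01, 0.00, 0.01 and 0.00 over all tested probe sets. By probe set, 15 of 34 were lower on day 1 (12.7% of all tested probe sets), 22 on day 2 (15.0%), 25 on day 4 (21.8%) and 19 on day 6 (11.9%). Higher calls numbered 0, 0, 1 and 3 (11.4%, 11.0%, 17.3% and 10.2% of all).

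**Figure D1:**
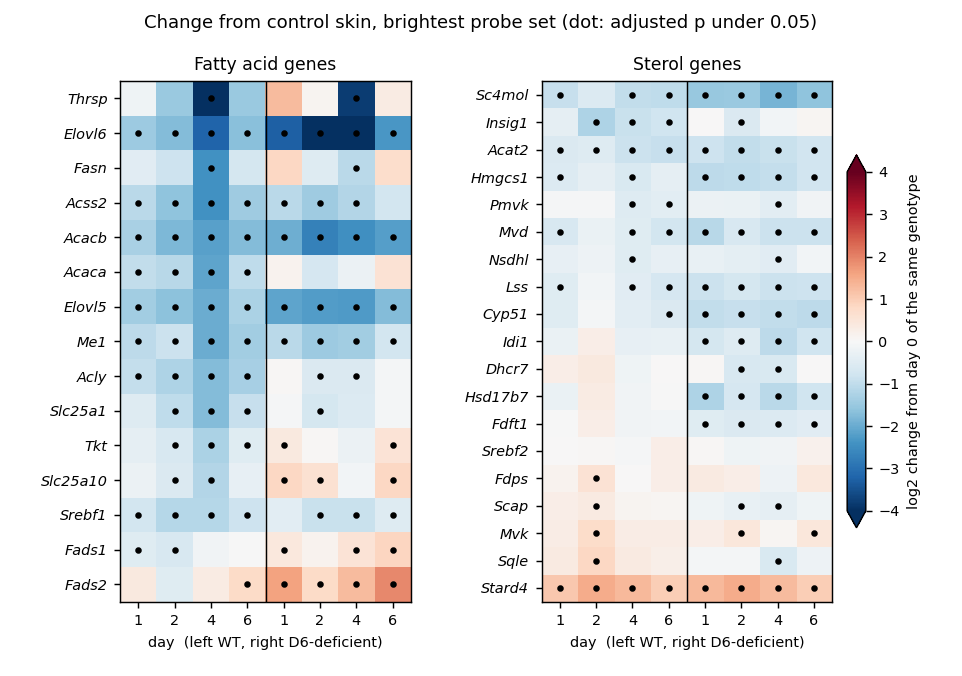
Change from day 0 of the same genotype for each of the 34 genes (rows, log2 difference of group means by colour, brightest probe set) on days 1, 2, 4 and 6, WT on the left of each panel and D6-deficient on the right. Colours saturate at 4 log2 units either way, and a dot marks an adjusted p under 0.05. In WT skin every fatty acid gene but Fads2 is below 0 on all days and the deepest blue lies on day 4, whereas Stard4 is red in all 8 columns of the sterol panel.

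For Thrsp the 3 control arrays of WT skin read 13.30, 13.30 and 13.58 and the day 4 arrays 7.41, 10.45 and 6.29, a difference of -5.34 (SE 0.63, adjusted p = 4.6e-07). Array 2 of that day stood apart from the other two, and without it the difference was -6.54. Fasn went from 13.05, 13.01 and 13.48 to 11.12, 11.19 and 9.96 (-2.43, SE 0.39, adjusted p = 2.9e-05). The groups of both genes lay apart.

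The genes that supply acetyl-CoA were lower on day 4 as well. Slc25a1, the mitochondrial citrate carrier, differed by -1.72, Acly, which splits citrate, by -1.75 and Acss2 by -2.42 (adjusted p = 8.9e-06, 1.6e-06 and 4.1e-06). Of the carboxylases that make malonyl-CoA, Acaca, the cytosolic form, went from 10.80, 10.98 and 11.57 to 9.29, 9.21 and 8.54, a difference of -2.10 (SE 0.31, adjusted p = 9.7e-06), and Acacb, the mitochondrial form whose product restrains fatty acid oxidation, differed by -2.17 (SE 0.25, adjusted p = 2.5e-07). The NADPH suppliers Me1 (malic enzyme) and Tkt (transketolase) differed by -1.97 and -1.27. The elongases Elovl6 and Elovl5 differed by -3.19 and -1.97 and the factor Srebf1 by -1.15, all with non-overlapping arrays. The desaturases of polyunsaturated fatty acids did not follow: Fads1 differed by -0.13 and Fads2 by 0.32 (adjusted p = 0.55 and 0.36).

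Among the time courses of the fatty acid genes, Elovl5, Elovl6 and Acacb were already lower on day 1, by -1.39, -1.46 and -1.29 (adjusted p = 1.5e-06, 3.9e-04 and 4.7e-04). Thrsp and Fasn were not: their day 1 differences were -0.18 and -0.45 (adjusted p = 0.88 and 0.46). By day 6 all fatty acid genes except Fads2 had log2 changes nearer 0 than on day 4, and Fasn (-0.69) and Thrsp (-1.48) no longer passed. Whether day 6 differed from day 4 was not tested.

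**Figure D2:**
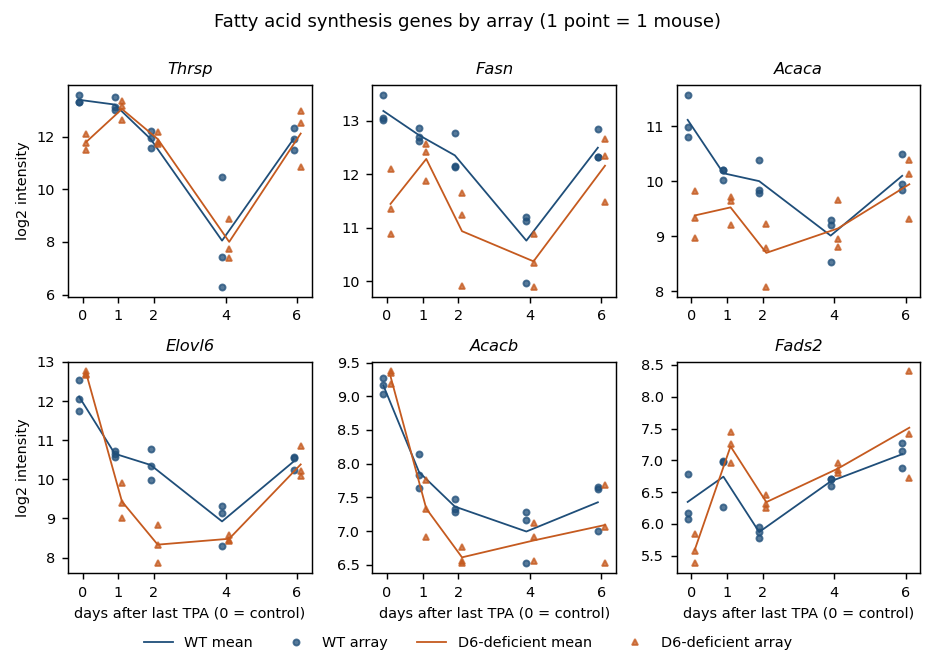
Log2 intensity of 6 fatty acid genes in each array (points, 1 mouse each; circles WT, triangles D6-deficient) against days after the last TPA application, with lines through the group means; each panel has its own axis. The WT lines of Thrsp, Fasn, Acaca and Elovl6 reach their lowest mean on day 4, and the D6-deficient points of Fasn and Acaca start below all WT points on day 0.

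Adipocyte markers moved with the day 4 fall in WT skin: 9 of 11 were lower (median -0.86), their summed intensity was 104521 to 115575 on day 0 and 62023 to 79751 on day 4, and Adipoq, a hormone of fat cells, was among them. Sebaceous markers were lower for 5 of 11 (median -0.76), and 4 of 7 keratinocyte markers were lower and 1 higher. Their part in the fall of the fatty acid genes was not tested. Of the calls, those of Acaca, Acss2 and Fads1 on day 1, Acaca and Slc25a10 on day 2, and Acaca, Slc25a1, Tkt and Fads2 on day 6 were lost when 1 or another array was left out. The highest adjusted p came without array 3 of WT day 0 for Acaca and Acss2 on day 1 (both 0.13), Acaca and Slc25a10 on day 2 (0.065 and 0.2) and Acaca, Slc25a1 and Tkt on day 6 (0.11, 0.073 and 0.088), without WT day 1 array 2 for Fads1 (0.17) and without WT day 6 array 2 for Fads2 (0.17).

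The sterol genes of WT skin did not move as a block. Stard4, which carries cholesterol between membranes, rose on every day, by 1.09, 1.49, 1.30 and 0.97 on days 1, 2, 4 and 6 (adjusted p = 0.0011, 3.6e-05, 7.9e-05 and 0.0036). Its control arrays read 8.47, 8.72 and 8.19 and its day 2 arrays 10.14, 10.12 and 9.61. On day 2, 5 of the 19 genes were higher and 2 lower, and the median change was 0.05. On day 4, 8 were lower and 1 higher, with a median of -0.32 where that of the fatty acid genes was -1.97. By probe set, 3, 9, 2 and 3 of 42 were higher and 5, 2, 13 and 10 lower on days 1, 2, 4 and 6, beside the shares of all probe sets given above.

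Of the higher genes of day 2, 3 encode enzymes between mevalonate and squalene epoxide. Sqle, the epoxidase, went from 10.45, 9.97 and 10.39 to 11.39, 11.22 and 10.71 (0.84, SE 0.18, adjusted p = 0.0015), Mvk, mevalonate kinase, differed by 0.73 (SE 0.12, adjusted p = 1.2e-04) and Fdps, which makes farnesyl diphosphate, by 0.57 (adjusted p = 0.023). Scap differed by 0.35 (adjusted p = 0.014). The Fdps call was lost without any 1 of 4 arrays (adjusted p up to 0.11, without WT day 2 array 1) and the Scap call without WT day 2 array 2 (0.11).

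Insig1, which retains SREBPs in the endoplasmic reticulum, was the sterol gene that fell furthest on day 2: from 10.07, 9.56 and 9.59 to 8.55, 8.37 and 8.64 (-1.22, SE 0.21, adjusted p = 1.5e-04). It remained lower on days 4 and 6 (-0.88 and -0.79). The day 6 call was lost without WT day 0 array 1 or WT day 6 array 1 (adjusted p = 0.067 and 0.055). On day 4 the lower genes were Sc4mol, a methyl sterol oxidase (-0.99), Insig1, Acat2, the cytosolic thiolase at the head of the route (-0.87), Hmgcs1, HMG-CoA synthase (-0.62), Pmvk (-0.53), Mvd and Nsdhl (both -0.50) and Lss, lanosterol synthase (-0.45). Those of Pmvk, Mvd, Nsdhl and Lss were lost without 1 or another array, with the highest adjusted p without WT day 0 array 3 (0.078, 0.16, 0.12 and 0.097). The same held for Pmvk on day 6 (0.33 without that array), for Cyp51 on day 6 and Lss on day 1 (0.15 and 0.098 without WT day 0 array 1) and for Mvd on day 1 (0.13 without WT day 1 array 2). Srebf2, the SREBP of the sterol branch, differed by -0.06 to 0.25 and passed on no day.

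**Figure D3:**
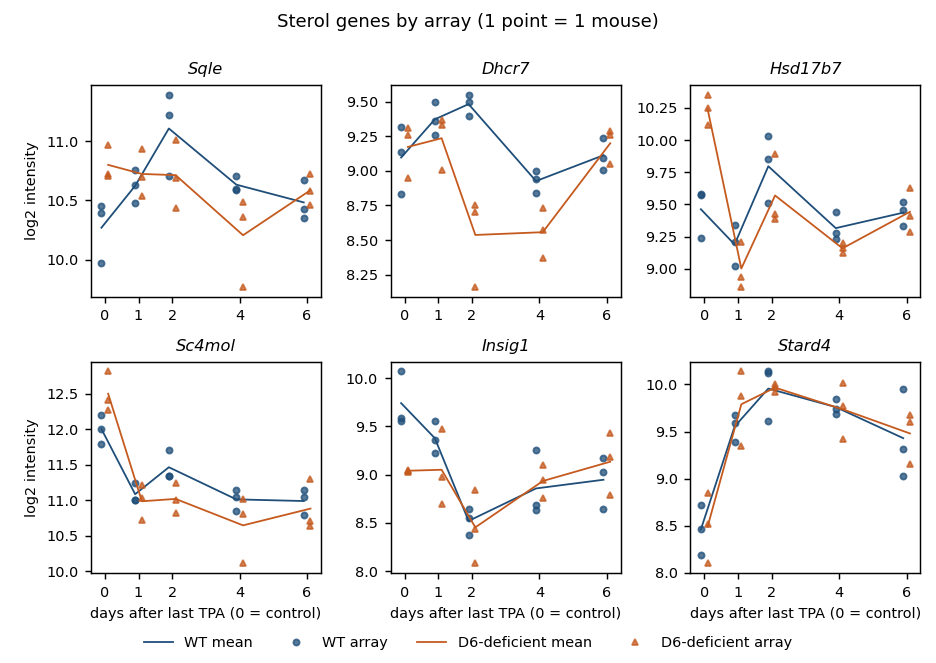
Log2 intensity of 6 sterol genes in each array (points, 1 mouse each; circles WT, triangles D6-deficient) against days after the last TPA application, with lines through the group means; each panel has its own axis. On day 2 the WT mean of Dhcr7 is at its highest and the D6-deficient mean at its lowest, while the Stard4 lines of the genotypes rise together.

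In D6-deficient skin the picture of the fatty acid genes was mixed. Elovl6 fell 20.8-fold by day 2, Acacb 6.43-fold and Elovl5, which extends polyunsaturated fatty acids, 4.75-fold, whereas Fads2 rose on every day, 3.78-fold on day 6. Of the 15 genes, 5, 8, 9 and 5 were lower and 4, 2, 2 and 4 higher on days 1, 2, 4 and 6, with medians of 0.06, -0.68, -0.89 and -0.07 (0.02, -0.01, 0.01 and -0.01 over all tested probe sets). By probe set, 9 of 34 were lower on day 1 (18.1% of all), 15 on day 2 (20.6%), 16 on day 4 (22.4%) and 9 on day 6 (15.7%), and 12, 5, 4 and 10 were higher (18.2%, 17.5%, 18.8% and 16.0%).

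Elovl6 read 12.76, 12.67 and 12.70 in D6-deficient control skin, 9.0, 9.40 and 9.90 on day 1 and 8.83, 7.85 and 8.31 on day 2. The differences from day 0 were -3.28, -4.38, -4.23 and -2.33 on days 1, 2, 4 and 6 (SE 0.27 each, adjusted p at most 1.0e-06), and the arrays of no later day overlapped the controls. Acacb differed by -1.96, -2.69, -2.44 and -2.21, Elovl5 by -2.10, -2.25, -2.26 and -1.75 and Me1 by -1.07, -1.45, -1.39 and -0.72. Thrsp was lower on day 4 alone, at 8.87, 7.75 and 7.39 against 11.77, 12.11 and 11.50 (-3.79, SE 0.63, adjusted p = 3.3e-05).

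Fads2, which begins the desaturation of polyunsaturated fatty acids, read 5.38, 5.84 and 5.57 on day 0 and 7.41, 8.40 and 6.73 on day 6 (1.92, SE 0.27, adjusted p = 9.9e-06). It was 1.62, 0.75 and 1.27 higher on days 1, 2 and 4. Fads1 was higher on days 1, 4 and 6 (0.43, 0.55 and 0.86), and Slc25a10, the dicarboxylate carrier, on days 1, 2 and 6 (0.82, 0.61 and 0.83). Tkt was higher on days 1 and 6 (0.39 and 0.55). These 3 genes and Fads2 had a D6-deficient control mean below the WT control mean. The difference passed for the 3 genes, as described below, but not for Fads2. Acaca differed from its control on no day (-0.68 to 0.57).

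Fasn differed on day 4 alone (-1.07, adjusted p = 0.031), with overlapping arrays, and lost the call without D6-deficient day 0 array 2 (adjusted p = 0.17) and without 3 other arrays. Other calls lost without 1 or another array, with the highest adjusted p that resulted, were Acss2, Fads1 and Tkt on day 1 (adjusted p = 0.11, 0.15 and 0.18 without day 1 array 1, day 1 array 1 and day 0 array 3), Acly, Slc25a1, Fads2 and Slc25a10 on day 2 (0.22, 0.14, 0.11 and 0.18 without day 2 array 2, day 2 array 2, day 0 array 1 and day 0 array 3), Acly on day 4 (0.13 without day 0 array 2), and Me1 and Srebf1 on day 6 (0.15 and 0.27 without day 6 array 2), all in D6-deficient skin.

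Of the 19 sterol genes, 9, 12, 14 and 9 were lower and 1, 2, 1 and 2 higher in D6-deficient skin on days 1, 2, 4 and 6, with medians of -0.30, -0.57, -0.60 and -0.21. By probe set, 17, 21, 25 and 20 of 42 were lower and 4, 4, 2 and 3 higher, beside the shares of all probe sets just given. Sc4mol went from 12.82, 12.28 and 12.41 to 11.21, 10.72 and 11.03 on day 1 and 10.11, 11.02 and 10.81 on day 4, with differences of -1.52, -1.48, -1.86 and -1.62 on the 4 days (SE 0.21, adjusted p at most 5.8e-06). Lower at all 4 times were also Hmgcs1 (-1.06, -1.03, -0.94 and -0.76), Hsd17b7, a reductase of the late route (-1.23, -0.67, -1.08 and -0.80), Cyp51, the lanosterol demethylase (-1.0, -0.93, -0.99 and -1.05), Acat2, Mvd, Lss, Idi1 and Fdft1, squalene synthase. These genes thus run from the thiolase to the late methyl sterols.

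Dhcr7, the last reductase before cholesterol, was lower on days 2 and 4 only (-0.64 and -0.62, adjusted p = 0.0014 and 0.0017). Stard4 rose by 1.30, 1.48, 1.25 and 0.99, and Mvk was higher on days 2 and 6 (both 0.46). Fdps and Srebf2 passed on no day. Calls lost without 1 or another array, with the highest adjusted p that resulted, were Fdft1 on days 1 and 6 (adjusted p = 0.096 and 0.12 without day 0 array 1), Idi1 and Mvd on day 2 (0.11 and 0.067 without day 0 array 1), Insig1 and Scap on day 2 (0.2 and 0.092 without day 2 arrays 2 and 1), Nsdhl and Sqle on day 4 (0.3 and 0.11 without day 4 array 1) and Pmvk on day 4 (0.13 without day 0 array 1).

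Markers of sebaceous glands, whose cells fill with lipid, were lower in D6-deficient skin as well. On day 2, 9 of 11 were lower than on day 0 (median -0.84), and their summed intensity was 48978 to 53761 on day 0 and 22690 to 32351 on day 2. In WT skin 6 of 11 were lower (median -0.60), with sums of 42198 to 45519 and 36163 to 42663. Far2, an enzyme of wax synthesis, fell from 12.14, 11.67 and 11.88 to 7.14, 4.06 and 3.95 in D6-deficient skin. Adipocyte markers were lower for 3 of 11 on day 2 and 3 of 11 on day 4 (medians -0.19 and -0.28), and 6 of 7 keratinocyte markers were lower on day 4. Their part in the change of the members was not tested.

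**Figure D4:**
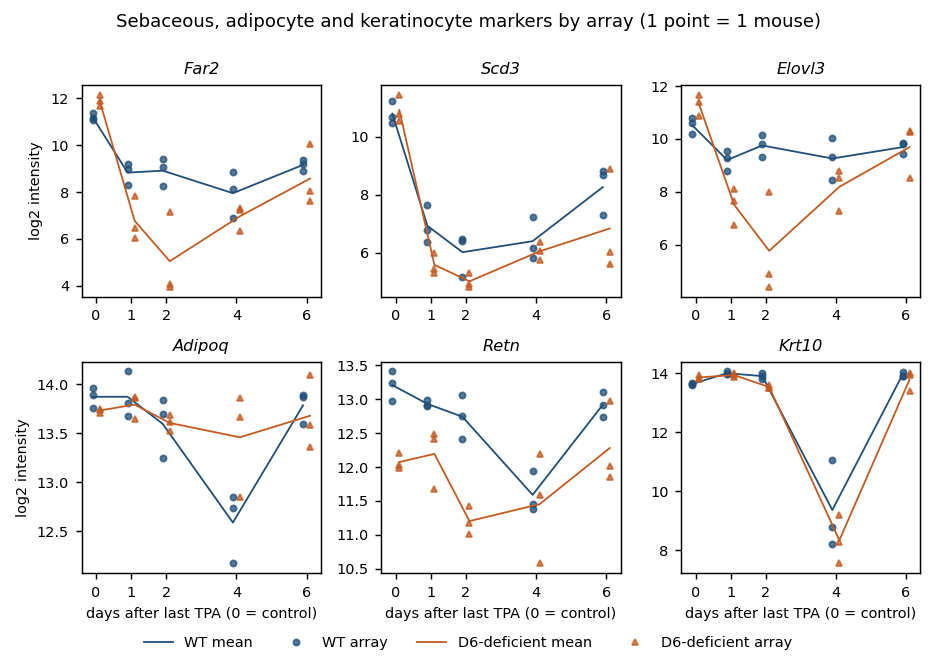
Log2 intensity of 3 sebaceous markers (Far2, Scd3 and Elovl3), 2 adipocyte markers (Adipoq and Retn) and the keratinocyte marker Krt10 in each array (points, 1 mouse each; circles WT, triangles D6-deficient) against days after the last TPA application, with lines through the group means; each panel has its own axis. Far2 and Elovl3 are lowest in D6-deficient skin on day 2, Adipoq is lowest in WT skin on day 4, and Krt10 is lowest on day 4 in both genotypes.

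The second question was whether the genotypes differed on the same day. In control skin they did, and in the fatty acid genes: Acaca was 3.34-fold, Fasn 3.33-fold, Slc25a10 2.65-fold and Acly 2.48-fold lower in D6-deficient skin before any TPA. By probe set, 13 of 34 fatty acid probe sets were lower (0.855% of all tested) and 1 higher (0.713%), and 0 of 42 sterol probe sets were lower and 2 higher. By gene, 6 of 15 fatty acid genes were lower (median -0.91, with 12 below 0 and 3 above) and 1 of 19 sterol genes higher (median 0.28, with 14 above 0 and 5 below), against a median of 0.00 over all tested probe sets. Of those, 18256 lay below 0 and 17773 above.

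Acaca read 10.80, 10.98 and 11.57 in WT and 9.34, 9.83 and 8.97 in D6-deficient control skin (-1.74, SE 0.31, adjusted p = 0.005). Fasn read 13.05, 13.01 and 13.48 against 11.35, 12.09 and 10.89 (-1.74, SE 0.39, adjusted p = 0.024). Slc25a10 read 10.53, 10.56 and 10.99 against 9.46, 9.58 and 8.82 (-1.41, SE 0.21, adjusted p = 8.4e-04). In each of these genes every D6-deficient array lay below every WT array.

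Acly differed by -1.31 (SE 0.23, adjusted p = 0.0039), Tkt by -0.93 (SE 0.15, adjusted p = 0.0019) and Fads1 by -0.82 (SE 0.16, adjusted p = 0.0089). The other probe sets of several of these genes gave the same call: the second of Acaca (-1.57), 2 more of Acly (-1.06 and -1.71), the second of Slc25a10 (-1.63), and 2 more of Tkt (-1.40 and -2.46). A second Me1 probe set was lower (-1.06, adjusted p = 0.048), whereas the brightest was not (-0.43, adjusted p = 0.4). Thrsp and Acss2 had differences of -1.60 and -1.23 without overlap of arrays but did not pass (adjusted p = 0.22 and 0.059).

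The elongases did not share the difference. Elovl6 read 12.05, 11.74 and 12.55 in WT and 12.76, 12.67 and 12.70 in D6-deficient skin (0.60, adjusted p = 0.31), and a dimmer Elovl6 probe set was higher (0.62, adjusted p = 0.027). Elovl5 and Acacb differed by 0.46 and 0.14 and Srebf1 by -0.21 (adjusted p = 0.15, 0.87 and 0.69). Among the sterol genes Hsd17b7 was higher, at 10.12, 10.25 and 10.35 against 9.57, 9.58 and 9.24 (0.78, SE 0.14, adjusted p = 0.0062), also on a second probe set (0.62, adjusted p = 0.034).

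Of the marker lists on day 0, 0 of 11 adipocyte markers (median -0.12) and 0 of 11 sebaceous markers (median 0.31) differed, while 3 of 7 keratinocyte markers (Krt14, Krt5 and Trp63) and 1 of 8 neutrophil markers (S100a8, by 2.41) were higher and 1 of 7 macrophage markers (Cd68) lower. The summed intensities of several lists nevertheless lay apart. Adipocyte sums ran from 104521 to 115575 in WT and from 95548 to 102163 in D6-deficient control skin. Sebaceous sums ran from 42198 to 45519 and from 48978 to 53761, and keratinocyte sums from 43755 to 45588 and from 61460 to 64525. Muscle and macrophage sums were lower and cell division sums higher in D6-deficient skin, also without overlap. The summed neutrophil intensity ran from 894 to 4978 in WT and from 2919 to 15770 in D6-deficient control skin, the highest being array 3. The part of these cells in the difference was not tested. The number of member probe sets that passed was 16 with all arrays and 10 without that array, 10 without D6-deficient array 1 and 9 without WT array 3. The methods' t-test with more than 3-fold called 7 of the 76 member probe sets before and 0 after Benjamini-Hochberg adjustment (55 and 1 of all probe sets). Fasn lost its call without each of 5 of the 6 arrays (-1.46 to -1.82, adjusted p = 0.053 to 0.14), and Fads1 without WT array 3 or D6-deficient arrays 1 or 3 (adjusted p = 0.054 to 0.063). Within the sets of arrays told apart by the hybridization controls, a comparison added after seeing the data, all 7 genes had the same direction in both sets (Acaca -1.55 and -2.17, with 1 to 2 arrays of a genotype in a set).

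**Figure D5:**
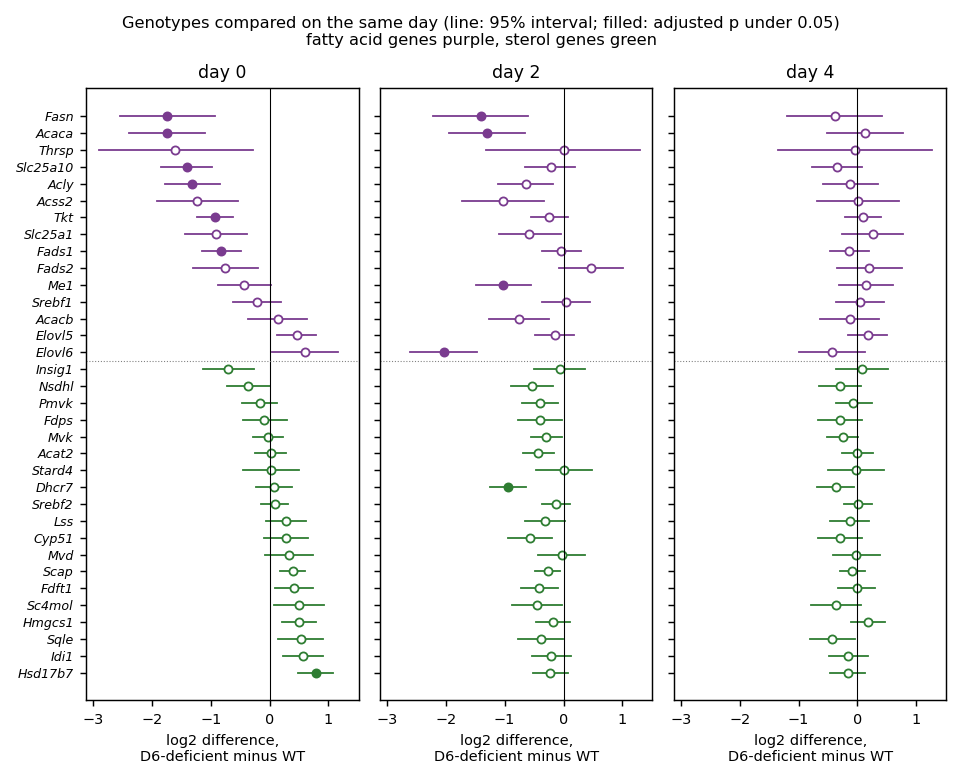
Difference between the genotypes on days 0, 2 and 4 (log2, D6-deficient minus WT, brightest probe set) for the 34 genes, with the 95% interval of the model as a line; filled points passed at an adjusted p under 0.05. On day 0 the filled points are fatty acid genes on the negative side and Hsd17b7 on the positive side, on day 2 Elovl6 lies furthest from 0 at -2.03, and on day 4 no point is filled.

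On day 2 the largest difference was that of Elovl6, while the other elongase, Elovl5, did not pass (-0.15, adjusted p = 0.74). Elovl6 was 4.09-fold lower in D6-deficient skin, Fasn 2.67-fold, Acaca 2.46-fold, Me1 2.02-fold and Dhcr7 1.93-fold. By probe set, 6 of 34 fatty acid and 2 of 42 sterol probe sets were lower (1.99% of all tested) and none of either was higher (2.46%; 887 probe sets). By gene, 4 of 15 fatty acid and 1 of 19 sterol genes were lower, and the signs leaned the same way in genes that did not pass: 18 of 19 sterol genes lay below 0 (median -0.32) and 13 of 15 fatty acid genes (median -0.58), against a median of -0.02 over all tested probe sets. Of those, 19232 lay below 0 and 16797 above. The genes were read in the same few mice, so that their signs are not separate observations. WT array 1 of that day was the highest of its group for Cyp51, Fdft1, Idi1 and Lss, though not for Insig1.

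Elovl6 read 10.78, 9.99 and 10.33 in WT and 8.83, 7.85 and 8.31 in D6-deficient skin (-2.03, SE 0.27, adjusted p = 3.4e-05), and a second probe set differed by -2.16. Dhcr7 read 9.55, 9.50 and 9.40 against 8.70, 8.16 and 8.75 (-0.95, SE 0.15, adjusted p = 2.5e-04). Both kept the call without any 1 array (Elovl6 -1.79 to -2.28). Me1 read 11.57, 11.40 and 10.93 against 10.58, 9.88 and 10.39 (-1.02, SE 0.22, adjusted p = 0.0066). Acaca differed by -1.30 and Fasn by -1.41 (adjusted p = 0.013 and 0.036), and the second Acaca probe set by -0.60 (adjusted p = 0.43). A dimmer Cyp51 probe set was lower as well (-0.82, adjusted p = 0.015).

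Array 2 of D6-deficient day 2 carried the lowest value of all 5 genes. Without it 3 member probe sets passed in place of 8, and the differences of Fasn, Acaca and Me1 were -0.90, -0.99 and -0.81 (adjusted p = 0.31, 0.14 and 0.074). Without WT array 1 of that day, 3 probe sets passed, and without D6-deficient array 3, 5. Fasn also lost its call without WT array 1, 2 or 3 or D6-deficient array 3 (adjusted p = 0.055 to 0.16). Within both sets of arrays the 5 genes kept their direction (Elovl6 -1.85 and -2.44).

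Sebaceous markers differed on the same day: 4 of 11 were lower in D6-deficient skin (Defb6, Elovl3, Far2 and Krt79, the latter by -2.30) and none higher (median -1.01). Of the adipocyte markers only Retn did (-1.53), of the keratinocyte markers only Krt15 (-1.27), of the muscle markers 4 of 8 were lower, and 3 of 8 neutrophil and 2 of 7 macrophage markers were higher. Their part in the difference of the members was not tested.

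On days 1, 4 and 6 none of the 76 member probe sets passed, where 0.0361%, 0.225% and 0.0999% of all tested probe sets were lower and 0.0194%, 0.289% and 0.0250% higher by limma. At an unadjusted p under 0.05, 9, 3 and 0 of the 76 would have passed, which is 11.8%, 3.95% and 0%, where 8.01%, 10.05% and 8.37% of all tested probe sets would have. On day 1 Elovl6 read 10.58, 10.73 and 10.65 in WT and 9.0, 9.40 and 9.90 in D6-deficient skin (-1.22, 95% interval -1.78 to -0.66, adjusted p = 0.1), without overlap. On day 4 Fasn differed by -0.38 (-1.19 to 0.42), Elovl6 by -0.44 (-1.0 to 0.12) and Thrsp by -0.04 (-1.35 to 1.26), and on day 6 by -0.34 (-1.15 to 0.47), -0.07 (-0.63 to 0.49) and 0.20 (-1.10 to 1.51).

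The third question was whether the change from day 0 itself differed between the genotypes. On day 2 it did for 6 sterol genes, all toward lower values in D6-deficient skin, and for 3 fatty acid genes. By probe set, 8 of 42 sterol and 3 of 34 fatty acid probe sets had a more negative change (2.62% of all tested) and 0 and 5 a more positive one (2.78%). Dhcr7 changed by 0.39 in WT and -0.64 in D6-deficient skin, a difference of -1.02 (SE 0.21, adjusted p = 0.004). Sqle changed by 0.84 and -0.09 (-0.92, SE 0.26, adjusted p = 0.037) and Hsd17b7 by 0.34 and -0.67 (-1.01, SE 0.20, adjusted p = 0.0034). Elovl6 changed by -1.75 and -4.38 (-2.63, SE 0.39, adjusted p = 2.0e-04).

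In the other direction Slc25a10 changed by -0.57 in WT and 0.61 in D6-deficient skin (1.18, SE 0.29, adjusted p = 0.017) and Fads1 by -0.65 and 0.13 (0.78, adjusted p = 0.04). Each such value contains the day 0 difference with its sign turned: for Slc25a10 and Fads1 the genotypes differed on day 0 (-1.41 and -0.82) and not on day 2 (-0.22 and -0.04), whereas for Dhcr7 they differed on day 2 (-0.95) and not on day 0 (0.08). Hsd17b7 was higher in D6-deficient skin on day 0 (0.78) and did not pass on day 2 (-0.23, adjusted p = 0.49). Sqle, Fdft1, Hmgcs1 and Scap passed on neither day, with values of 0.53, 0.41, 0.50 and 0.39 on day 0 and -0.39, -0.41, -0.18 and -0.27 on day 2. Of 11 sebaceous markers 4 had a more negative change in D6-deficient skin (median -1.13), and their part was not tested. Without D6-deficient day 0 array 3 the number of member probe sets that passed went from 16 to 8, and without WT day 2 array 1 to 10. Sqle lost its call without any 1 of 7 of the 12 arrays (adjusted p up to 0.13, without D6-deficient day 2 array 2), Fads1 without any 1 of 9 (up to 0.12, without WT day 0 array 3) and Slc25a10 without either day 0 array 3 (up to 0.061).

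On day 4, 1 of 42 sterol probe sets had a more negative change (0.416% of all) and 4 of 34 fatty acid probe sets a more positive one (0.192%). Acaca changed by -2.10 in WT and -0.24 in D6-deficient skin (1.87, SE 0.44, adjusted p = 0.049), Tkt by -1.27 and -0.25 (1.02, SE 0.21, adjusted p = 0.026) and Hsd17b7 by -0.14 and -1.08 (-0.94, SE 0.20, adjusted p = 0.03). On that day none of the 3 differed between the genotypes directly (0.13, 0.09 and -0.16). Without D6-deficient day 0 array 3 none of the 5 probe sets passed (adjusted p = 0.15, 0.084 and 0.092 for the 3 genes). On day 1 none of 76 passed (0.0167% of all lower, 0.00278% higher; 28 at an unadjusted p under 0.05, where 3494 of all 36029 did, and 4 by the methods' t-test with more than 3-fold, 0 after adjustment, where 108 and 2 of all did), and on day 6, 1 fatty acid probe set had a more positive change (0.0139%).

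The remaining genes of the pathways were taken from lists chosen by function. Of 22 other fatty acid genes, 9, 10, 13 and 8 were lower and 2, 2, 1 and 0 higher in WT skin on days 1, 2, 4 and 6 (medians -0.28, -0.54, -0.64 and -0.39). In D6-deficient skin, 8, 11, 10 and 8 were lower and 2, 0, 2 and 3 higher. Of all tested probe sets 12.7%, 15.0%, 21.8% and 11.9% were lower and 11.4%, 11.0%, 17.3% and 10.2% higher in WT skin. In D6-deficient skin these shares were 18.1%, 20.6%, 22.4% and 15.7% lower and 18.2%, 17.5%, 18.8% and 16.0% higher. Mlxipl, which encodes the carbohydrate response factor ChREBP, was lower on every day in both genotypes, by -1.97 on day 4 in WT and -0.91 in D6-deficient skin. Gpam, which begins triglyceride assembly, was lower likewise (-1.47 and -0.85). Elovl3, an elongase of sebaceous glands, fell by 5.56 on the log2 scale on day 2 in D6-deficient skin and had a difference of -0.78 in WT skin, which did not pass; the genotypes differed directly on that day (-3.99, adjusted p = 3.0e-04). Its D6-deficient day 2 arrays read 7.99, 4.39 and 4.90, and without array 1, which stood apart, these differences were -6.67 and -5.11.

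Of 12 other sterol genes, 1, 3, 3 and 1 were lower and 2 higher on each day in WT skin, and 5 were lower and 4, 4, 4 and 3 higher in D6-deficient skin. These few calls stand beside the shares of all tested probe sets given in the paragraph above. Ebp, a sterol isomerase, was higher on every day in both genotypes. Among 9 genes of oxysterols and cholesterol efflux, Cyp7b1, an oxysterol hydroxylase, rose by 3.15 in WT and 3.84 in D6-deficient skin on day 4. Ch25h, which makes an oxysterol that holds back SREBP processing, rose by 1.84 and 3.05 and was higher in D6-deficient skin on that day (1.58, adjusted p = 0.0019). Other genes of this list went the other way. From day 0 to day 4 the Apoe mean went from 13.75 to 12.90 in WT and from 13.67 to 12.75 in D6-deficient skin. The Mylip mean went from 10.70 to 9.84 and from 10.59 to 9.44. Abca1 and Soat1 also had lower day 4 means in both genotypes, Abcg1 and Nr1h2 slightly higher ones, and Nr1h3 moved in opposite directions.

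Changes of more than 3-fold that also passed the test were nearly all in fatty acid genes. In WT skin 0, 7, 19 and 3 of the 34 fatty acid probe sets were that much lower on days 1, 2, 4 and 6, where 0.835%, 0.699%, 1.48% and 0.541% of all tested probe sets were. None was that much higher (0.930%, 1.20%, 1.76% and 0.799% of all), and no sterol probe set of WT skin was in either direction. In D6-deficient skin 5, 5, 7 and 5 fatty acid probe sets were that much lower (1.43%, 1.57%, 2.04% and 1.24% of all) and 3, 0, 1 and 2 higher (1.06%, 1.70%, 1.97% and 0.888%), and 1 of 42 sterol probe sets was lower on day 4 and on day 6. Between the genotypes, 5 fatty acid probe sets were more than 3-fold lower on day 0 (0.0694% of all; 0 higher, 0.0527%) and 2 on day 2 (0.161%; 0 higher, 0.411%). The change from day 0 differed by more than 3-fold for 3 fatty acid probe sets on day 2, 2 toward lower and 1 toward higher values (0.555% of all each), and for 2 on day 4, both toward higher values (0.0500%; 0.103% lower).

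Most members had several probe sets: 26 had more than 1 tested and 8 had 1, with at most 5. In 3 instances, all in D6-deficient skin, probe sets of a gene passed in opposite directions. For Fdft1 the brightest probe set was lower and a dimmer one higher on day 1 (-0.47 and 0.75) and on day 4 (-0.56 and 0.57). The dimmer one had a mean of 5.16, below the array medians. A further one, of mean 10.27, was lower on day 4 (-0.56, adjusted p = 0.0092) but did not pass on day 1 (-0.15, adjusted p = 0.52). Another dim one passed on neither day (0.16 and 0.33). The direction of Fdft1 is thus uncertain, more so on day 1 than on day 4. For Acacb the brightest was lower by 2.69 on the log2 scale on day 2 and a dimmer one higher by 0.31. The less bright Acat2 probe set (mean 9.67) also names Acat3, and the brightest one (mean 11.43) names Acat2 alone.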

How the data were processed

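RNA from whole back skin of 30 mice was hybridized to 1 array each. The deposited intensities had been background-corrected, quantile-normalized and summarized by the authors with robust multiarray analysis (RMA). They are linear and were converted here to log2 without further scaling, and the base-line transformation that the methods describe was not present in them. Of 45101 rows, 64 control probe sets were left out, then the dimmest 20% by mean over all arrays (9008), and 36029 were tested. limma 3.58.1 (lmFit, eBayes, R 4.3.3) fitted 1 mean per genotype and day, and 17 contrasts were read from it. The methods' unpaired t-test was run as an alternative. The fit was tested on simulated data. The number of arrays limits the precision.

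All 34 genes are named, each by its probe set of highest mean. Members, marker lists and pathway lists were chosen with earlier results of these data known. Marker sums are linear intensities. Windows were searched with Python 3.11.15 and plotted values drawn with matplotlib 3.10.9. Replicate numbers did not pair the arrays: deviations of arrays with the same number had median correlations of 0.02, 0.01 and -0.05. Alternatives comprised a 3-fold minimum, no dim filter, the arrays of a contrast alone, median centring, the replicate number or the hybridization control set as a term, averaging by symbol, and leaving out each array. A second deposited text held a sample sheet, which was used only to tie a column with an incomplete header to WT day 6 array 3. Histology, PCR and antibody experiments were not analysed here.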

Additional observations from a re-analysis of the deposited data

Results flagged for a closer look

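The change from day 0 differed between the genotypes, by the limma contrast of the 2 changes, for 9 genes on day 2 and 3 on day 4. Values are the change in D6-deficient minus that in WT skin, in log2. On day 2 they were -2.63 for Elovl6, -1.02 for Dhcr7, -1.01 for Hsd17b7, -0.92 for Sqle, -0.82 for Fdft1, -0.68 for Hmgcs1, -0.66 for Scap, 1.18 for Slc25a10 and 0.78 for Fads1. On day 4 they were -0.94 for Hsd17b7, 1.87 for Acaca and 1.02 for Tkt. Of the 9, Elovl6, Dhcr7 and Hsd17b7 passed under each alternative fitted to single genes. The Hmgcs1 value passed at an adjusted p of 0.047 and was lost under 13 of 18 alternatives, that of Fads1 under 11, Sqle under 8, Fdft1 under 7, Slc25a10 under 2 and Scap under 1. On day 4 Acaca lost the call under 14, and Tkt and Hsd17b7 under 7 each. The opposite calls of Fdft1 probe sets make its value uncertain. In all 12 the 2 genotypes' own day 0 arrays enter with opposite sign.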

How the results depend on the processing

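Among the called genes directions were kept with 1 exception: Fdft1 on day 1 in D6-deficient skin was 0.07 with probe sets averaged by symbol and -0.47 by its brightest. Of 188 called genes and comparisons, 129 passed under every alternative fitted to single genes (all except the 3-fold minimum and the t-test), and the hybridization control set as a term lost 0 of 188. Counts below run from WT days 1, 2, 4 and 6 (23, 33, 41 and 35), through D6-deficient days 1, 2, 4 and 6 (42, 45, 47 and 42) and the genotypes on days 0 and 2 (16 and 8), to the difference in change on days 2, 4 and 6 (16, 5 and 1). With 3-fold required they were 0, 7, 19 and 3, then 8, 5, 9 and 8, then 5 and 2, then 3, 2 and 0. Averaged by symbol, which counts genes, they were 13, 20, 22 and 18, then 20, 20, 22 and 19, then 6 on day 0, then 8 and 3 on days 2 and 4. With only the arrays of the contrast, the difference in change gave 3 on day 4 and 0 on day 6, and 0 on day 6 also without the dim filter and with median centring. The methods' t-test with more than 3-fold gave 7 on day 0 and 4, 4, 2 and 2 for the difference in change on days 1, 2, 4 and 6, and after adjustment 0 on day 0 and 4, 0 and 0 on days 2, 4 and 6. The cause was not tested, except that the 3-fold minimum and averaging by symbol count fewer items by construction.

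Leaving out each array gave 14 to 25, 27 to 33, 30 to 39 and 24 to 31 for WT, 38 to 44, 33 to 42, 41 to 44 and 34 to 41 for D6-deficient skin, 9 to 14, 0 to 1 and 3 to 10 for the genotypes on days 0, 1 and 2, 0 on days 4 and 6, and 0 to 2, 8 to 20, 0 to 6 and 0 to 3 for the difference in change. The WT day 1 count of 14 came without WT day 0 array 3. The replicate number as a block, which does not pair these arrays, gave 15 on day 0, 8 on day 2, and 20, 4 and 0 for the difference in change on days 2, 4 and 6. Of the 30 arrays, 10 correlated best with an array of their own number.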
